A study of Mus musculus with 14 samples.

Results

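The 10 genes described here encode the main lysosomal proteases of phagocytes and 2 of their partner proteins. They are the cathepsins Ctsb, Ctsd, Ctsl, Ctss, Ctsz, Ctsc and Ctsh, the asparaginyl protease Lgmn (legumain), and the cofactors Grn (progranulin) and Psap (prosaposin). They were chosen by symbol and are 10 of the 19465 genes in 1 feature table of the series and 10 of the 32589 in the other. All 10 were present in both tables and had counts in all 14 sections. The study profiled mouse blood-forming organs on formalin-fixed, paraffin-embedded sections with Visium, in which probes read out RNA over a grid of spots that each cover several cells, and values are counts of unique molecular identifiers (UMIs). It asked how macrophages that express C1q, a complement protein, sit among maturing red cells. Levels are given as UMIs per 1000000 (CPM), summed over the in-tissue spots of a section with at least 1000 detected genes.

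Of the 14 sections, 6 came from purchased wild-type C57BL/6 mice, 1 section for each: fetal livers at embryonic day 13.5 (E13.5) and E14.5, leg bone marrow at postnatal day 8 (P8), leg bone marrow at 89 weeks, bone marrow at 6 months decalcified with 0.5 M EDTA for 5 days, and an adult spleen. The other 8 sections came from intercrosses of mice heterozygous for a C1qa deletion: 2 wild-type and 2 C1qa knockout fetal livers at E14.5 (numbers 2 and 4) and 2 wild-type and 2 C1qa knockout spleens at 3 months per the labels (numbers 1 and 2). The deletion is present in every cell of the knockouts from the start of development, not in macrophages alone. Fetal livers with the same number were littermates, whereas spleens share only a number. The 6 purchased sections use the larger feature table, so their levels stand beside those of the cross without a test, and the section is the replicate throughout. The paper describes marrow of old mice as cryosectioned without decalcification and freed from the bone before paraffin embedding. Age and preparation thus differ together between P8 and 89-week marrow and cannot be told apart.

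As background, lysosomal proteases are made as inactive precursors, sorted into lysosomes and activated there at low pH. The cysteine and aspartic cathepsins digest engulfed and worn-out proteins, legumain cuts and activates several of them, progranulin is taken into lysosomes and cut into granulins, and prosaposin is cut into the saposins that help enzymes degrade sphingolipids. Macrophages of erythroblastic islands, spleen red pulp and bone marrow engulf expelled nuclei and old red cells, and are rich in lysosomes. Antigen-presenting cells, B cells among them, use some of the same proteases, in particular cathepsin S, to trim the invariant chain of MHC class II. Osteoclasts, the bone-resorbing relatives of macrophages, release lysosomal proteases onto bone.

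Sections differed widely in depth and in what they held. In-tissue UMIs ran from 449883 to 56182915 per section, spots that passed from 15 in the EDTA-treated marrow to 2320, and median UMIs per passing spot from 2294 to 75701. The labelled tissues carried their markers: the 10 hepatocyte markers summed to 7249 to 99029 CPM in the 6 fetal livers and to 2.25 to 65.8 CPM elsewhere, and the 6 B-cell markers to 4441 to 5830 CPM in the 5 spleens. Spots with at least 0.5% hepatocyte UMIs, called hepatocyte spots, made up 94.4% of wild-type fetal liver 2 and 96.6% of knockout fetal liver 2. They made up 29.9% of wild-type fetal liver 4 and 63.7% of knockout fetal liver 4, so much of the sections numbered 4 fell below that share. Spots with at least 0.5% pancreas UMIs, called pancreas spots, were found in wild-type spleen 2 (7.05%), knockout spleen 1 (2.87%) and knockout spleen 2 (3.50%). Wild-type spleen 1 had none above this share. Tests and spot comparisons were repeated on hepatocyte spots of the fetal livers and on spots of the spleens under the pancreas share, called restricted spots here. A lower value in a bulk sum of spots can mean fewer cells of a type or less RNA per cell, and these cannot be told apart. In the wild types of the cross, C1qa itself was measured at 95.9 and 25.8 CPM in fetal liver and 218 and 269 CPM in spleen. All 4 knockouts had 0.06 to 0.19 CPM, which matches the genotype labels.

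The upstream sequences of 8 of the 10 genes were in the RefSeq promoter table (build GRCm38.p6), with 10 annotated starts. They were searched for the letters CACGTG, which read the same on both strands and form the core of the site bound by TFEB and its relatives, transcription factors known to switch on lysosomal genes. In the 250 bases before the start, Ctsd held 2 copies, 245 and 98 bases before its start, and Lgmn and Ctsl 1 copy each, 49 and 236 bases before a start that lies inside the annotated span of the gene. These were 3 of the 8 matched genes, against 6.86% of the 27025 genes searched and 6.02% of the 32851 promoters of the same length. The sequences are shown to put the Ctsd, Lgmn and Ctsl promoters beside those of Ctss and Ctsz, 2 of the 5 matched genes without a copy, the others being Ctsc, Grn and Psap. Capitals mark CACGTG, all sequences read 5′ to 3′ on the strand of the gene, and a match is a string of letters, not a shown binding site.
Ctsd, chr7:142387828-142388077, minus strand: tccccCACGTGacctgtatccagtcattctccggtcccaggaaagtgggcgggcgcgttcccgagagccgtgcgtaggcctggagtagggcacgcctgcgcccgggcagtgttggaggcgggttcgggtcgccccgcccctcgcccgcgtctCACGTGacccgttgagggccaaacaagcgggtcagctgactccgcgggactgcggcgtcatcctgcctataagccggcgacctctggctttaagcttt
Lgmn, chr12:102439093-102439342, minus strand: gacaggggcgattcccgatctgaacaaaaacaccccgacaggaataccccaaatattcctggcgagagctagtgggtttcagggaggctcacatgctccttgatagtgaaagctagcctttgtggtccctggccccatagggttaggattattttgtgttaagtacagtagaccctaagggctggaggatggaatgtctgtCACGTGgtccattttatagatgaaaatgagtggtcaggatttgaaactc
Ctsl, chr13:64370521-64370770, minus strand: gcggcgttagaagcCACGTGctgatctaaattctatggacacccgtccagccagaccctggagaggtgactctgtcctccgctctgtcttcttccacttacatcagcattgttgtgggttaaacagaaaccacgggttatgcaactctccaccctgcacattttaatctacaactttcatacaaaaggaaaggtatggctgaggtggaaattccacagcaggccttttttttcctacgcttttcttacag
Ctss, chr3:95526536-95526785, plus strand: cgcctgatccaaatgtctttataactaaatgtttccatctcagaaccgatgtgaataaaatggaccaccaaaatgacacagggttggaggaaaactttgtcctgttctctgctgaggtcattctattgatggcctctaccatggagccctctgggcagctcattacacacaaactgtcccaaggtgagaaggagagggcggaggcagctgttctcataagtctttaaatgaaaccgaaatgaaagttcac
Ctsz, chr2:174439040-174439289, minus strand: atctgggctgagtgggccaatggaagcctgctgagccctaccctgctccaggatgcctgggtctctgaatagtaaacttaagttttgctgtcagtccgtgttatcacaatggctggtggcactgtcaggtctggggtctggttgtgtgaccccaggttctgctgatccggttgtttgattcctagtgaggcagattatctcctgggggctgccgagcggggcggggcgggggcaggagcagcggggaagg
The letters GAGGAAG or CTTCCTC, a core bound by the myeloid factor PU.1, occurred only upstream of Ctsc among the 8 genes, with 2 copies, and in 10.6% of all promoters. The promoters of Ctsb and Ctsh were not analysed here.

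Among the endopeptidases that cut inside protein chains, Ctss (cathepsin S; chr3:95526786-95556405, with all gene positions on GRCm38.p6 from RefSeq) varied most between tissues. It was at 32.3 CPM in the E13.5 and 29.8 CPM in the E14.5 purchased fetal liver, at 49.7 CPM in wild-type fetal liver 2, 17.5 CPM in wild-type fetal liver 4, and 43.0 and 21.4 CPM in the knockouts numbered alike. Bone marrow held 66.3 CPM at P8, 309 CPM at 89 weeks and 80.7 CPM in the EDTA-treated section, the last from 3 counts with 95% Poisson limits of 16.6 to 236 CPM. The purchased adult spleen reached 889 CPM, the wild-type spleens 649 and 602 CPM and the knockout spleens 629 and 570.5 CPM. Every spleen was thus above every other section, and the highest of the 14 sections was 51.0 times the lowest. Intervals given for single sections cover counting error only.

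Ctsl (cathepsin L; chr13:64361890-64370772) varied least, with 2.90 times between the lowest and the highest section. Its levels were 337 and 314 CPM in the purchased E13.5 and E14.5 fetal livers, 442 and 236 CPM in the wild-type and 315 and 204 CPM in the knockout fetal livers. It stood at 332 CPM in P8 marrow, 248 CPM in 89-week marrow and 188 CPM in the EDTA-treated marrow. The spleens held 174 CPM (purchased), 224 and 203 CPM (wild type) and 165 and 153 CPM (knockout). Spleens were at the low end of the range for Ctsl, the reverse of Ctss.

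Ctsb (cathepsin B; chr14:63122462-63145923), a protease of both endopeptidase and carboxypeptidase action, was at 798 and 956 CPM in the purchased fetal livers, 1107 and 344 CPM in the wild-type and 1065 and 429.7 CPM in the knockout fetal livers. Marrow values were 665 CPM at P8, 493 CPM at 89 weeks and 538 CPM with EDTA. The purchased spleen held 1483 CPM, the wild-type spleens 1057 and 1136 CPM and the knockout spleens 1008 and 1108 CPM. Both sections numbered 4, those with the fewest hepatocyte spots, were the lowest of all 14. In their hepatocyte spots alone, Ctsb was at 512 CPM in wild-type and 505 CPM in knockout fetal liver 4, still below the sections numbered 2.

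Ctsd (cathepsin D; chr7:142375910-142387827), the aspartic protease of lysosomes, was lowest in the purchased E14.5 fetal liver. The purchased fetal livers held 135.2 and 118 CPM, P8 marrow 150.2 CPM and the purchased spleen 192 CPM. Fetal livers of the cross held 412 and 235 CPM (wild type) and 505 and 292 CPM (knockout), and spleens of the cross 466 and 567 CPM (wild type) and 524 and 568 CPM (knockout). The other 2 purchased sections, 89-week and EDTA-treated marrow, were at 522 and 538 CPM. The ranges of purchased and cross sections, 118 to 538 and 235 to 568 CPM, overlapped only through these 2 marrows, a tissue absent from the cross. Within fetal liver and within spleen, every purchased section lay below every section of the cross, which also held for Ctsz and Psap. Over the genes that both tables share, Ctsd in the E13.5 liver was at 161 CPM in place of 135.2 CPM.

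Legumain, encoded by Lgmn (chr12:102394082-102439728), was measured at 74.8 and 76.0 CPM in the purchased fetal livers, 108 and 63.9 CPM in the wild-type and 101 and 62.6 CPM in the knockout fetal livers. The marrows held 113 CPM (P8), 64.4 CPM (89 weeks) and 134.5 CPM (EDTA, 5 counts). Spleen levels were 272 CPM in the purchased section, 214 and 148 CPM in the wild types and 172 and 192 CPM in the knockouts. All 5 spleens lay above all 6 fetal livers.

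The exopeptidases, which trim protein ends, were also higher in spleen. Ctsz (cathepsin Z, a carboxypeptidase; chr2:174427494-174439039) was at 117 to 207 CPM in the 6 fetal livers, with 144 and 117 CPM in the purchased, 187 and 164 CPM in the wild-type and 207 and 154 CPM in the knockout sections. P8, 89-week and EDTA-treated marrow held 346, 396 and 242 CPM. The spleens held 570.0 CPM (purchased), 589 and 667 CPM (wild type) and 662 and 608 CPM (knockout), so that fetal liver, marrow and spleen formed an ordered series without overlap. Each marrow is, however, a different kind of section. The lowest marrow value, that of the EDTA-treated section, comes from 15 spots with 37167 UMIs in all, and this order does not weigh counting error.

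For Ctsc (cathepsin C, a dipeptidyl aminopeptidase that activates the serine proteases of neutrophils and cytotoxic cells; chr7:88278024-88315861), the fetal livers held 47.3 and 30.9 CPM (purchased), 18.0 and 11.4 CPM (wild type) and 27.5 and 13.6 CPM (knockout). Marrow was at 71.6 CPM (P8), 29.996 CPM (89 weeks) and 53.8 CPM (EDTA, 2 counts). The purchased spleen held 238 CPM, against 76.0 and 91.1 CPM in the wild-type and 71.96 and 75.04 CPM in the knockout spleens. The purchased spleen was the highest section for Ctsc, Ctsh, Lgmn, Ctsb and Ctss alike.

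Ctsh (cathepsin H, an aminopeptidase; chr9:90054267-90076095) gave 36.9 and 50.6 CPM in the purchased fetal livers, 116 and 13.9 CPM in the wild-type and 60.1 and 12.8 CPM in the knockout fetal livers. Values were 109 CPM in P8, 51.6 CPM in 89-week and 108 CPM in EDTA-treated marrow. In spleen they were 358 CPM (purchased), 124 and 150.0 CPM (wild type) and 161 and 190.4 CPM (knockout). The 2 wild-type fetal livers differed more for Ctsh than the tissues did, and its highest section was 28.0 times its lowest. Among spleens of the cross, both knockouts lay above both wild types.

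Of the cofactors, Grn (chr11:102430507-102436809) was at 67.7 and 54.5 CPM in the purchased fetal livers, 149 and 89.9 CPM in the wild-type and 131 and 65.8 CPM in the knockout fetal livers. Marrow was above this, with 253 CPM at P8, 426 CPM at 89 weeks and 430.5 CPM with EDTA. The spleens held 225 CPM (purchased), 323 and 347 CPM (wild type) and 233 and 232 CPM (knockout). Grn was the only member with its highest levels in adult marrow.

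Psap (chr10:60277628-60302600) was at 272 and 231 CPM in the purchased fetal livers, 662 and 406 CPM in the wild-type and 642 and 329.6 CPM in the knockout fetal livers. P8, 89-week and EDTA-treated marrow held 719.8, 1204 and 1587 CPM. The purchased spleen was at 1994 CPM, the wild-type spleens at 2452 and 3501 CPM and the knockout spleens at 2955 and 2738 CPM. As for Ctsz, the ranges of fetal liver, marrow and spleen did not overlap, although they mix purchased and cross sections, and the purchased ones were the lowest within fetal liver and within spleen. Summed over all 10 genes, the group took 1581 to 3251 CPM in the fetal livers, 2826 to 3901 CPM in the marrows and 6173 to 7412 CPM in the spleens.

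**Figure D1:**
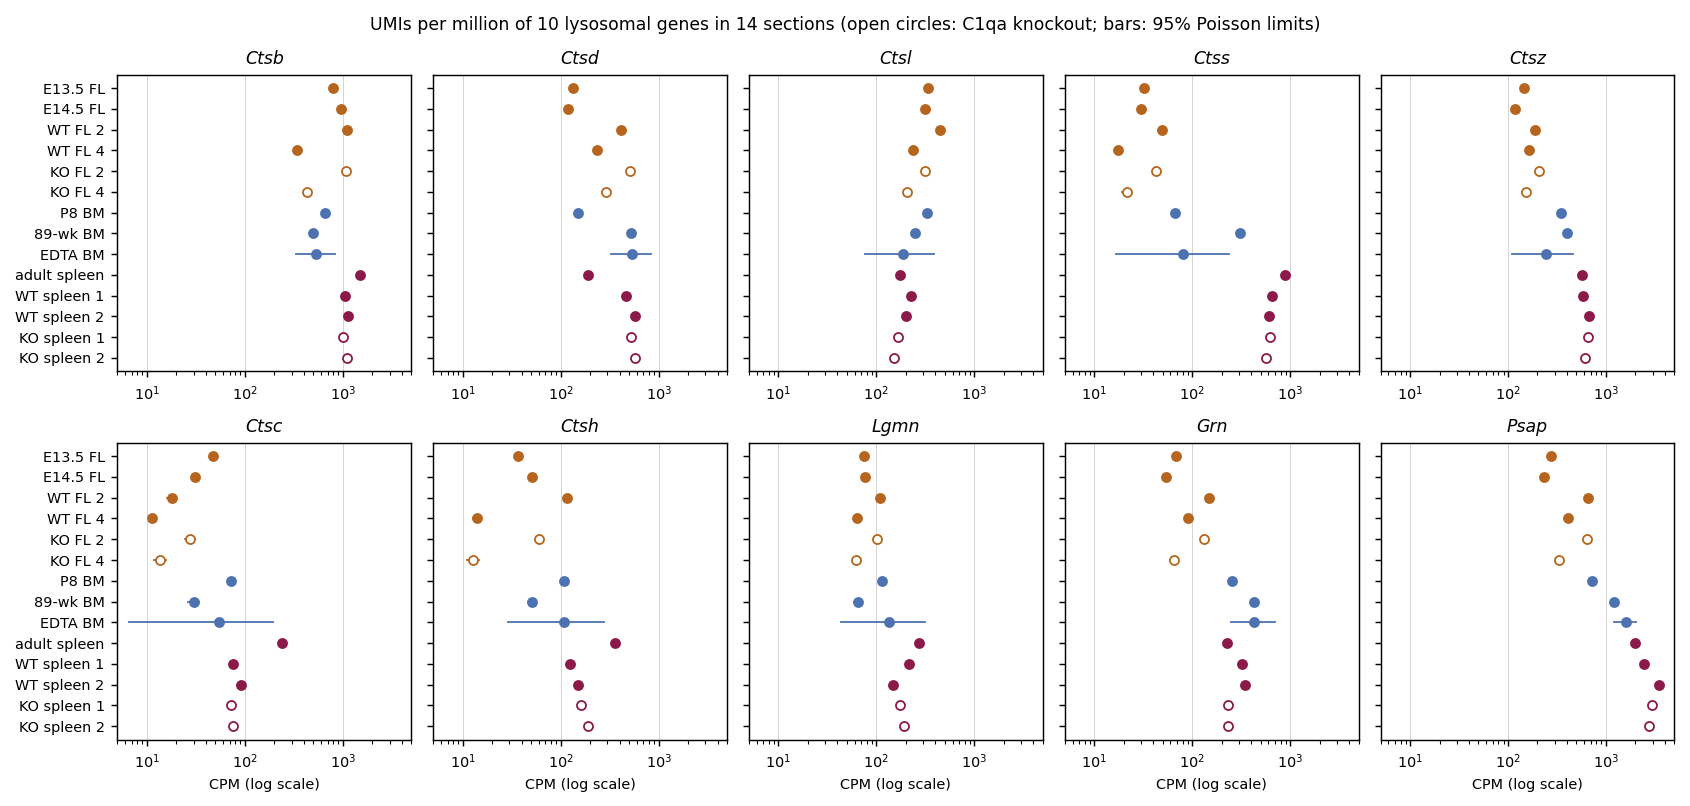
CPM (log axis) of the 10 genes in 14 sections, 1 panel for each gene, with fetal livers (FL) in orange, bone marrow (BM) in blue and spleens in purple, open circles for C1qa knockouts (KO) and bars for 95% Poisson limits of a single section. Ctss runs from 17.5 CPM in wild-type (WT) fetal liver 4 to 889 CPM in the purchased spleen, whereas Ctsl stays between 153 and 442 CPM.

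The tissues were compared within the cross, where the 4 spleens and 4 fetal livers share a feature table. Their CPM ranges did not overlap for 7 of the 10 genes, all higher in spleen. Of 19383 genes, 36.7% had ranges that did not overlap, 26.8% higher and 9.93% lower in spleen. By the ratio of mean CPM, these were Ctss (18.6 times), Psap (5.71), Ctsc (4.45), Ctsz (3.55), Ctsh (3.08), Grn (2.60) and Lgmn (2.16). Ctsb (1.46), Ctsd (1.47) and Ctsl (0.622) overlapped. Tissue and age differ together in this comparison, E14.5 against 3 months, and cannot be told apart.

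Counts summed per section were then tested with edgeR's quasi-likelihood test and Benjamini-Hochberg adjustment over all genes. In the wild types, Ctss rose in spleen against fetal liver by 3.03 on the log2 scale (SE 0.84, adjusted p = 0.0405). It was 1 of the 10 members called in a comparison that called 46.3% of 18986 genes, 28.1% higher and 18.2% lower in spleen. Ctsl was at a log2 difference of -1.80 (SE 0.64, adjusted p = 0.0756), Ctsc at 1.41 (SE 0.55, adjusted p = 0.0951) and Psap at 1.37 (SE 0.66, adjusted p = 0.147), none past the threshold of 0.05. Although their ratios of mean CPM were above 1, some members were below 0 in this test. These were Ctsh (-0.23, SE 1.16), Lgmn (-0.042, SE 0.59), Ctsb (-0.62, SE 0.86) and Ctsd (-0.45, SE 0.61). In the knockouts, which share no section with the wild types, Ctss rose by 3.61 (SE 0.67, adjusted p = 0.00389) and was again the 1 member called, with 21.3% of 19051 genes called, 9.68% higher and 11.6% lower. These counts belong to the scaling of the main test, and with 10 genes no result is read from their share. Psap (1.94, SE 0.82) and Ctsh (1.55, SE 0.77) had the next largest differences and did not pass.

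How many members passed depended on how the sections were scaled and on single sections. With the factors of the main test (trimmed mean of M values), the median log2 difference over all genes was 0.043 in the wild types. It moved to 0.72 with upper-quartile factors and to 0.93 with library totals alone, the split of calls went from 5344 higher and 3452 lower to 7250 and 1549 or 6643 and 868, and the members called from 1 to 3 and 5. DESeq2 called 4483 genes higher and 4834 lower, 2 of them members. In the knockouts the median went from 0.15 to 0.18 and 0.40 and the split from 1845 higher and 2204 lower to 2217 and 2609 or 2195 and 1526, with 4 and 7 members called. Relative to the median of all genes, that of the 10 members was 0.17 against 0.043 in the wild types and 0.94 against 0.15 in the knockouts. Without wild-type fetal liver 2, 8 members were called higher and 1 lower beside 38.7% and 34.4% of all genes, without wild-type fetal liver 4, 2 higher and 4 lower beside 39.2% and 32.8%, and without either wild-type spleen no gene of any kind passed by edgeR's quasi-likelihood test, with 5449 and 6378 genes at an unadjusted p under 0.05. Without knockout fetal liver 2, 9 members were called beside 45.9% of all genes, and without knockout fetal liver 4, 7 members beside 54.7%. Ctss was the exception in that it kept its direction and its call in every setting, apart from leaving out a wild-type spleen.

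Restricting the fetal livers to hepatocyte spots and leaving pancreas spots out of the spleens kept the Ctss call in both genotypes. Its log2 difference in the wild types was then 2.75, and Ctsl was called lower in spleen as well (-2.07, adjusted p = 0.0179, edgeR's quasi-likelihood test with Benjamini-Hochberg adjustment). Ctsl also passed in the wild types under DESeq2, with -2.01 (adjusted p = 0.0127). Its direction was lower in spleen under every scaling and with each section left out, in both genotypes.

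Knockouts were next compared with wild types within each tissue, which asks whether loss of C1qa goes with a change in lysosomal genes. In fetal liver, no gene of 18986 passed after adjustment, C1qa included, so the comparison called 0% and 0 of the 10 members by edgeR's quasi-likelihood test, with 138 genes at an unadjusted p under 0.05, none of them a member, and 12 genes by DESeq2, again with no member. The 10 log2 differences ran from -1.06 for Ctsh (SE 1.31) to 0.35 for Ctsc (SE 0.78), 8 below and 2 above 0, with a median of -0.28 against -0.0040 for all genes. Both medians moved up with upper-quartile factors, to -0.12 and 0.22, and with library totals, to -0.064 and 0.22. CPM ranges of the genotypes overlapped for all 10, beside 10.1% of all genes without overlap, 7.55% higher and 2.5% lower. Their standard errors, 0.66 to 1.31, are those of a comparison in which the sections numbered 2 and 4 differed more than the genotypes did. With the litter as a block the dispersion was 0.0743 and the fit called 157 genes (0.827%), C1qa among them, and no member. Ctsh was then at -0.76 (SE 0.28, unadjusted p = 0.00646, adjusted p = 0.334, edgeR's quasi-likelihood test), the smallest adjusted p of the 10. A simulated fold change of 4 was recovered for 93.5% of genes at a dispersion of 0.05 and for 0% at 0.25, and the dispersion measured here was 0.263, so changes of that size were not detectable in the fit without the block.

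In spleen, where the sections were more alike (dispersion 0.0245), 20.6% of 18895 genes passed, 13.8% higher and 6.79% lower in knockouts. Ctsh was the 1 member of 10 called, with a rise of 0.63 in knockouts on the log2 scale (SE 0.18, adjusted p = 0.0185, edgeR's quasi-likelihood test with Benjamini-Hochberg adjustment). The knockouts held 161 and 190.4 CPM against 124 and 150.0 CPM in the wild types, 176 ± 20.6 against 137 ± 18.7 (SD, n = 2 each). Grn was at -0.27 (SE 0.17, adjusted p = 0.2497), although its CPM was 233 ± 0.78 in knockouts and 335 ± 17.1 in wild types without overlap. Ctsl was at -0.17 (SE 0.16, adjusted p = 0.428), with 159 ± 8.62 CPM in knockouts against 213 ± 15.4 CPM in wild types. CPM ranges of the genotypes did not overlap for Ctsh (higher) and for Ctsl, Ctsc and Grn (lower), 4 of 10 members beside 69.2% of all genes, 18.9% higher and 50.3% lower. On restricted spots Ctsh was at 124 and 151 CPM in wild types and 163 and 201 CPM in knockouts, a rise of 0.64 (SE 0.19, adjusted p = 0.0212), while Grn was at -0.27 (adjusted p = 0.239) and Ctsl at -0.22 (adjusted p = 0.316), all by edgeR's quasi-likelihood test. The 7 members other than Ctsh, Grn and Ctsl differed by 0.085 to 0.35, none past the threshold.

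The direction in spleen depended on the scaling, which separated CPM from the tested values for Grn and Ctsl. The median over all genes was -0.082 with the factors of the test, -0.37 with upper-quartile factors and -0.34 with library totals alone, and the calls went from 2603 higher and 1283 lower to 1197 and 4400 or 1249 and 3464. DESeq2 called 2331 genes higher and 374 lower, 1 of them a member. Under upper-quartile factors Grn fell by 0.56 (adjusted p = 0.0182) and Ctsl fell by 0.46 (adjusted p = 0.0318, both by edgeR's quasi-likelihood test with Benjamini-Hochberg adjustment), while Ctsh, at 0.34, was not called. With library totals Ctsh was at 0.37 and not called either. Over all alternatives that kept every section, 3 single-gene values kept direction but lost the call, and 3 kept direction and gained one. An unchanged count of calls can thus hide a change of gene. Relative to the median of all genes, the median of the 10 members was higher in every one of these scalings, 0.20 against -0.082, -0.086 against -0.37 and -0.056 against -0.34. Leaving out knockout spleen 2 left 240 genes called (1.27%) and no member. Leaving out knockout spleen 1 kept Ctsh with 26.1% of all genes called, leaving out wild-type spleen 1 gave Ctsh and Lgmn with 14.6%, and leaving out wild-type spleen 2 gave Ctsd, Ctsh and Psap with 19.7%. With the section number as a block, Ctsh was at 0.62 (adjusted p = 0.00293), although the numbers of the spleens pair nothing. A single fit of all 8 sections called no gene in spleen.

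The neutrophil and pancreas marker lists separated the genotypes in the same spleens, while the B-cell and erythroid lists overlapped between them. The 10 neutrophil markers summed to 677 and 609 CPM in the wild types and 80.2 and 137 CPM in the knockouts, the 10 pancreas markers to 69.5 and 1050.0 CPM against 4141 and 28188 CPM, the 6 B-cell markers to 4893 and 4441 CPM against 5787 and 4857 CPM, and the 10 erythroid markers to 12408 and 3149 CPM against 1649 and 3401 CPM. All genes of these lists had counts in every spleen of the cross. Their part in the values of Ctsh, Grn and Ctsl was not tested. C1qc and C1qb, the partner chains of C1qa, were at 220.4 and 255 CPM against 242 and 264 CPM for C1qc, and C1qb rose by 0.83 in knockout spleens (SE 0.20, adjusted p = 0.00759, edgeR's quasi-likelihood test). The 13 macrophage markers summed to 2996 and 2130.2 CPM in the wild types and 2066 and 2294 CPM in the knockouts.

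Whether the genotype effect differed between tissues was tested as an interaction over the 8 sections. No gene of 19180 passed (0%), and 2018 had an unadjusted p under 0.05 by edgeR's quasi-likelihood test, while DESeq2 called 9. The median over all genes was 0.025, and -0.49 and -0.46 with upper-quartile factors and library totals, beside 0.39, -0.040 and -0.036 for the members. The member with the largest difference was Ctsh, with an effect 1.65 higher in spleen than in fetal liver (SE 1.69, adjusted p = 0.658). With the litter of the fetal livers as a block, 1409 genes passed, and Ctsh was the 1 member among them, at 1.40 (adjusted p = 0.0133). With the block and only hepatocyte spots in the livers and no pancreas spots in the spleens, Ctsh was at 1.73 (adjusted p = 0.000169).

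**Figure D2:**
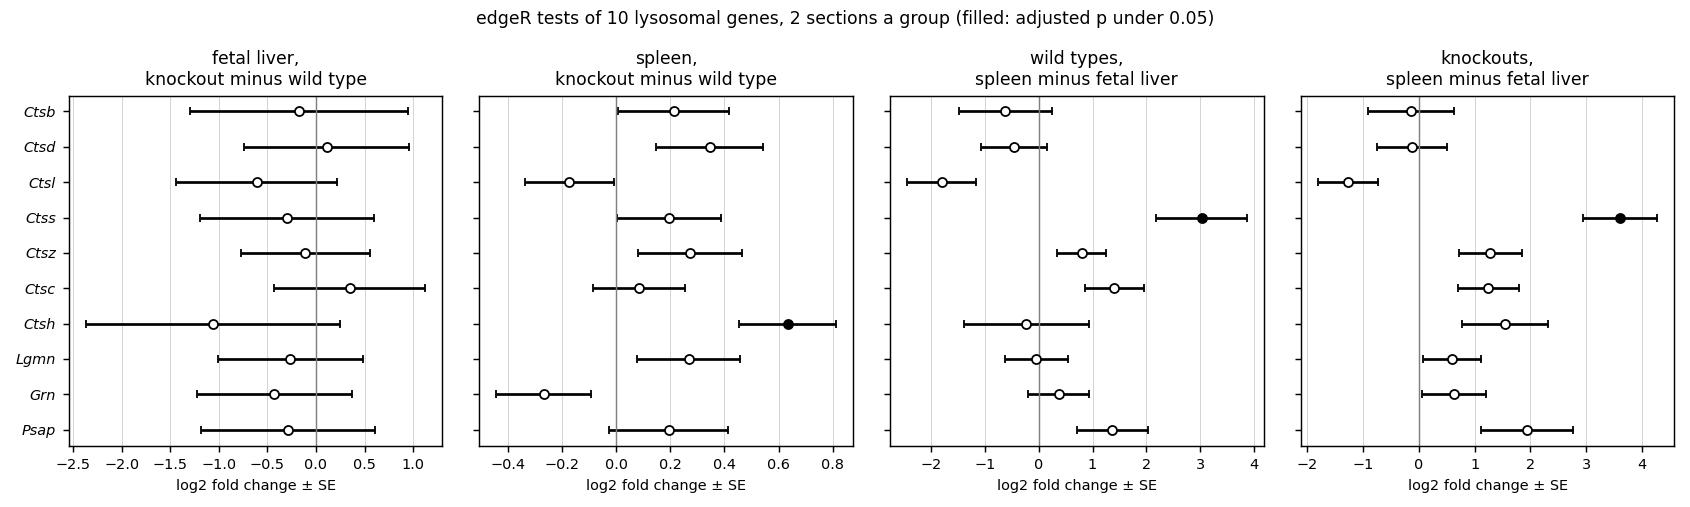
Log2 fold changes of the 10 genes (points) with standard errors (bars) from edgeR in 4 comparisons of 2 sections against 2, each panel on its own axis, filled where the adjusted p is under 0.05. Ctss is filled in both tissue panels, at 3.03 and 3.61, and Ctsh in the spleen genotype panel, at 0.63, while the fetal liver panel has no filled point.

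The place of the genes within a section was described by Pearson's r across its passing spots, between the log2 level of each gene and that of C1qc, and between each gene and Lyz2, a lysozyme gene of monocytes, other macrophages and neutrophils. C1qc was used because its RNA is present in both genotypes. Spots of a section share a library and its depth and are not replicates, so r is a description and has no p. The EDTA-treated marrow, with 15 spots, was left out, which leaves 13 sections with 491 to 2320 spots each and 130 values of r. With C1qc, 110 of 130 were above 0, from -0.178 to 0.513. With Lyz2, 69 of 130 were above 0, from -0.0773 to 0.113.

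Ctsb, Ctsd, Lgmn, Grn and Psap were positively correlated with C1qc in 13 of 13 sections. Ctsb had the highest median r, 0.273, with 0.513 in the purchased spleen, 0.463 in the E13.5 fetal liver and 0.444 in knockout spleen 2. Lgmn reached 0.506 in the E13.5 and 0.308 in the E14.5 fetal liver and 0.327 in wild-type fetal liver 4. Ctsd lay between 0.0615 and 0.380. Psap had 0.315 at E13.5 and 0.318 in knockout spleen 2, and Grn 0.312 at E13.5. Ctss was positive in 12 of 13 sections (median 0.0671) and turned to -0.150 in wild-type spleen 1. Ctsl was positive in 11 but never above 0.111, and Ctsc in 10 with at most 0.204. Ctsh (7 of 13) and Ctsz (5 of 13) were above 0 in fetal livers for the most part, and below 0 in all 5 spleens, where Ctsz ran from -0.178 to -0.0583 and Ctsh from -0.170 to -0.0392. Ctsb was also correlated with Alas2, an erythroid marker. In wild-type fetal livers 2 and 4 that r was 0.551 and 0.706, against 0.143 and 0.273 with C1qc. In knockout fetal livers 2 and 4 it was 0.270 and 0.646, against 0.0768 and 0.151. It was below r with C1qc in the purchased spleen (0.378), the E13.5 fetal liver (0.449) and knockout spleen 2 (0.424). The part of erythroid cells was not tested.

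**Figure D3:**
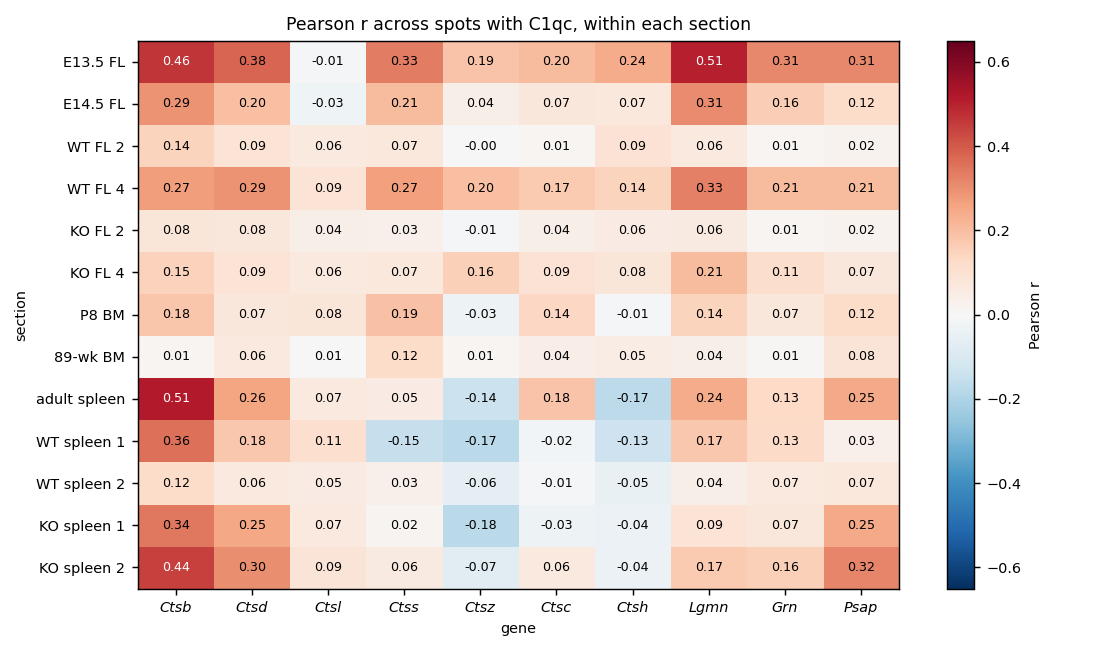
Pearson r across spots between each of the 10 genes (columns) and C1qc in 13 sections (down the side), by colour and printed value. Ctsb, Ctsd, Lgmn, Grn and Psap are above 0 in every section, and Ctsz and Ctsh are below 0 in the 5 spleens.

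By section, the median r of the 10 members with C1qc was highest in the E13.5 fetal liver (0.314), followed by wild-type fetal liver 4 (0.206), the purchased spleen (0.156), the E14.5 fetal liver (0.139) and knockout spleen 2 (0.121). It was lowest in knockout fetal liver 2 (0.0390), 89-week marrow (0.0405), wild-type spleen 2 (0.0449) and wild-type fetal liver 2 (0.0633), and the median over all genes lay between -0.0266 and 0.0220 in the 13 sections. The ranges of knockout and wild-type sections overlapped in part, with 0.0390 and 0.0910 against 0.0633 and 0.206 in fetal liver and 0.0699 and 0.121 against 0.0729 and 0.0449 in spleen. With 2 sections a group, this does not show that the genotypes are alike. The size of r goes with depth: thinned to 2000 UMIs per spot, the medians were between 0.00332 and 0.0415. They stayed above 0 in all 13 sections, and with the deviation from the mean of the 6 adjacent spots they were between 0.00657 and 0.232.

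The median r with C1qc was above that with Lyz2 in 13 of 13 sections. This held for Spearman's rho, for deviations from adjacent spots, for all in-tissue spots and without non-liver and pancreas spots, and in 12 of 12 sections after thinning. Lyz2 was, however, close to undetected, at 0.623 to 11.6 CPM in the 13 sections, and had a UMI in 0.838% to 13.2% of spots against 30.9% to 97.6% for C1qc. Thinned to the total of Lyz2, C1qc still gave the higher median in 11 of 13 sections, not in the E14.5 fetal liver or P8 marrow, but its medians were then no higher than 0.0584. At these counts no r with Lyz2 can be read as a lack of relation. Sums over marker lists hold more counts. The macrophage list includes C1qb and C1qc and the monocyte list Lyz2, so the lists are not separate from the single genes. Against the 13 macrophage markers (5740 to 59732 counts per section) the median r of the members was 0.0434 to 0.332, and against 6 monocyte markers (535 to 8794 counts) 0.00455 to 0.201, with the macrophage list higher in 12 of 13 sections and lower in 89-week marrow.

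Spleen divides into red pulp, where macrophages clear red cells, and white pulp, where B and T cells are packed. Spots were ranked by the macrophage list or by the 6 B-cell markers, and the CPM of the top 25% of spots was divided by that of the bottom 25% in each of the 5 spleens. Ctsb was higher in macrophage-rich spots in 5 of 5 spleens, 1.80 to 2.46 times, and lower in B-cell-rich spots in 5 of 5, 0.548 to 0.890 times. In the purchased spleen it was at 2421 CPM in macrophage-rich and 983 CPM in macrophage-poor spots. Ctsd (1.31 to 2.13 and 0.614 to 0.765) and Ctsl (1.08 to 1.64 and 0.668 to 0.716) had the same pattern in all 5. Lgmn (1.54 to 2.27) and Grn (1.44 to 1.73) were likewise higher in macrophage-rich spots in 5 of 5, but had no common direction along the B-cell axis, with 3 and 2 of 5 ratios above 1. Psap was at 1.01 to 1.53 along the macrophage axis and at 0.797 to 1.25 along the B-cell axis.

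Ctsz, Ctsh, Ctss and Ctsc went the other way on the B-cell axis. Their CPM was higher in B-cell-rich spots in 5 of 5 spleens, 1.36 to 1.80 times for Ctsz, 1.20 to 2.34 times for Ctsh, 1.11 to 1.71 times for Ctss and 1.07 to 1.68 times for Ctsc. In wild-type spleen 1, Ctsz was at 705 CPM in B-cell-rich and 392 CPM in B-cell-poor spots, and Ctsh at 164 and 70.1 CPM. Ctsz was lower in macrophage-rich spots in all 5 (0.715 to 0.982) and Ctsh in 4 of 5 (0.626 to 1.02). Ctss was mixed, above 1 in 3 of 5. Of the genes in this group, Ctss and Ctsc were above 1 on both axes in some spleens, whereas Ctsz was above 1 on the B-cell axis alone. Depth differed between the top and bottom spots as well. Along the B-cell axis the widest gap was in knockout spleen 2, with a median of 11284 UMIs per spot in the top and 13593 in the bottom 25%, and along the macrophage axis in the purchased spleen, with 8439 and 15312. The part of depth in these ratios was not tested. On restricted spots, ranked anew, the B-cell ratios ran from 1.36 to 1.80 for Ctsz, 1.16 to 2.34 for Ctsh, 1.08 to 1.71 for Ctss, 1.07 to 1.44 for Ctsc and 0.548 to 0.767 for Ctsb. On the macrophage axis Ctsb was then at 1.77 to 2.46. Ctsz, at 0.715 to 0.859, and Ctsh, at 0.6002 to 0.849, were below 1 in all 5 spleens. Ctsc was above 1 on that axis in 4 of 5 (0.994 to 1.42) and Ctss in 3 of 5 (0.807 to 1.14).

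Correlations with the B-cell list had the signs of these ratios in all 5 spleens, without pancreas spots, for Ctsz, Ctsh, Ctss, Ctsb, Ctsd and Ctsl, but not for Ctsc, at -0.00709 in the purchased spleen. Without pancreas spots, r was 0.2496, 0.527, 0.136, 0.214 and 0.234 for Ctsz in the purchased, wild-type 1, wild-type 2, knockout 1 and knockout 2 spleens, 0.278, 0.385, 0.0841, 0.0901 and 0.170 for Ctsh, and 0.0823, 0.518, 0.0798, 0.0791 and 0.161 for Ctss. For Ctsb it was -0.442, -0.310, -0.0443, -0.217 and -0.207. Pancreas spots changed 1 sign for Ctsb: with them, r was 0.174 in knockout spleen 2. After thinning to 2000 UMIs per spot Ctsh turned to -0.00748 in knockout spleen 1 and Ctsb was at 0.0623 in knockout spleen 2, with pancreas spots included. Wild-type and knockout spleens had the same signs without pancreas spots for Ctsb, Ctsd, Ctsl, Ctss, Ctsz and Ctsh. Psap did not share this, at 0.427 and 0.00507 in the wild types of the cross against -0.178 and -0.178 in the knockouts. In the purchased wild-type spleen Psap was at -0.233.

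**Figure D4:**
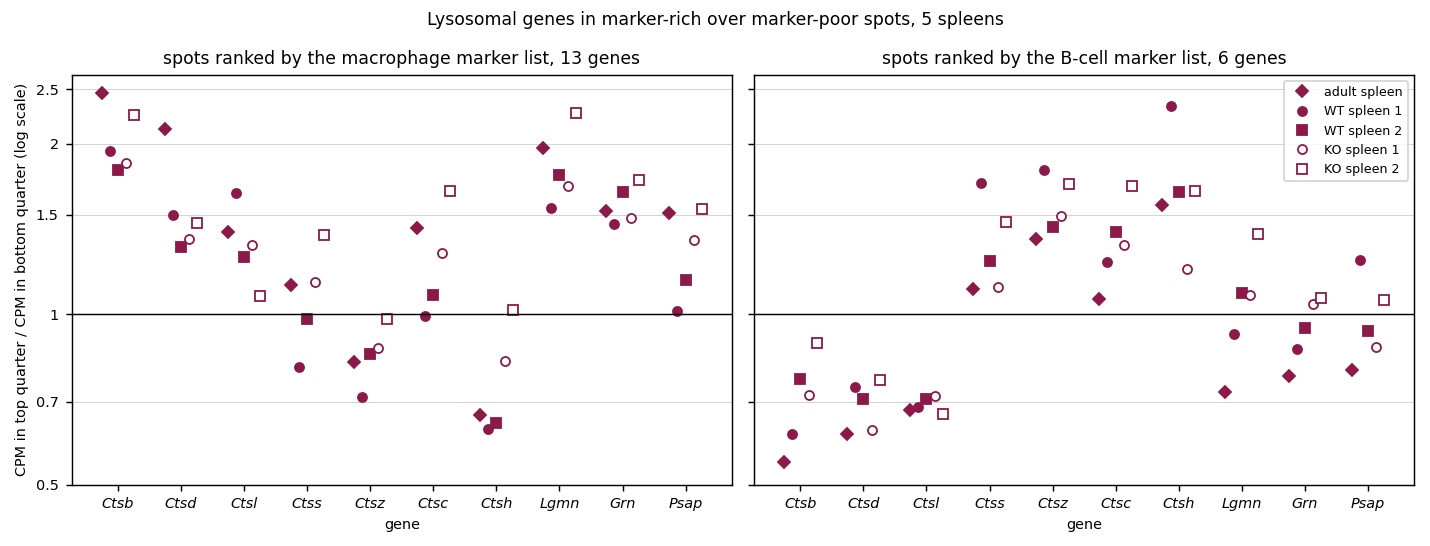
CPM in the top 25% of spots over CPM in the bottom 25% (log axis) for the 10 genes in 5 spleens, with spots ranked by macrophage markers or by B-cell markers and open symbols for knockouts. Ctsb lies at 1.80 to 2.46 on the macrophage axis and 0.548 to 0.890 on the B-cell axis, and Ctsz at 0.715 to 0.982 and 1.36 to 1.80.

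In the 6 fetal livers, where macrophages form the centres of erythroblastic islands, macrophage-rich spots held more of most members. The ratio of the top to the bottom 25% was above 1 in 6 of 6 livers for Lgmn (1.35 to 2.49), Ctss (1.35 to 2.81), Ctsb (1.19 to 2.47), Ctsd (1.20 to 2.29), Ctsc (1.15 to 1.86), Ctsh (1.15 to 1.80) and Grn (1.05 to 1.70). It was above 1 in 5 of 6 for Ctsl (0.962 to 1.35) and Psap (0.953 to 1.37) and in 4 of 6 for Ctsz (0.941 to 1.39). Lgmn was at 114 CPM in macrophage-rich and 45.7 CPM in macrophage-poor spots at E13.5, and at 97.7 and 55.2 CPM at E14.5. Within hepatocyte spots, r with the macrophage list was 0.0941 to 0.558 for Lgmn, 0.0997 to 0.614 for Ctsb and 0.0883 to 0.433 for Ctsd. On restricted spots, ranked anew, the ratio stayed above 1 in 6 of 6 for Lgmn (1.41 to 2.49), Ctss (1.23 to 2.11), Ctsb (1.10 to 1.45), Ctsd (1.17 to 1.41), Ctsh (1.05 to 1.59) and Grn (1.06 to 1.70), and was also above 1 in 6 of 6 for Psap (1.00286 to 1.37), but in 5 of 6 for Ctsc (0.904 to 1.68) and 3 of 6 for Ctsl (0.877 to 1.10). Ctsh, below 1 on the macrophage axis in 4 of 5 spleens, was above 1 in all 6 livers, a difference that was not tested.

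Ctsl, Ctsb and, in most livers, Ctsh were higher in hepatocyte-rich spots. The ratio of the top to the bottom 25% of spots ran from 1.11 to 1.55 for Ctsl and from 1.05 to 2.34 for Ctsb, above 1 in 6 of 6, and from 0.688 to 1.38 for Ctsh, above 1 in 5 of 6. On restricted spots it ran from 1.13 to 1.41 for Ctsl (6 of 6), 0.990 to 1.16 for Ctsb (5 of 6) and 0.900 to 1.87 for Ctsh (5 of 6). For Ctsl, r with the 10 hepatocyte markers was 0.429 at E13.5 and 0.334 at E14.5 in the purchased sections, and with hepatocyte spots alone it was 0.115 and 0.293 in the wild-type and 0.0590 and 0.0159 in the knockout livers. Ctsb was the other member above 0 in 6 of 6, at 0.0763 to 0.247 within hepatocyte spots. Over all spots of wild-type and knockout fetal liver 4, Ctsb reached 0.640 and 0.614 and Ctsd 0.553 and 0.554, while Grn was at -0.391 and -0.135 and Psap at -0.383 and -0.339. In these sections 29.9% and 63.7% of spots were hepatocyte spots. The 6 bone matrix markers summed to 3223 and 1898 CPM there, against 847 and 1092 CPM in the sections numbered 2. Within hepatocyte spots alone, Ctsd was at 0.0741 and 0.0588, Grn at -0.105 and -0.259 and Psap at -0.175 and -0.210.

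**Figure D5:**
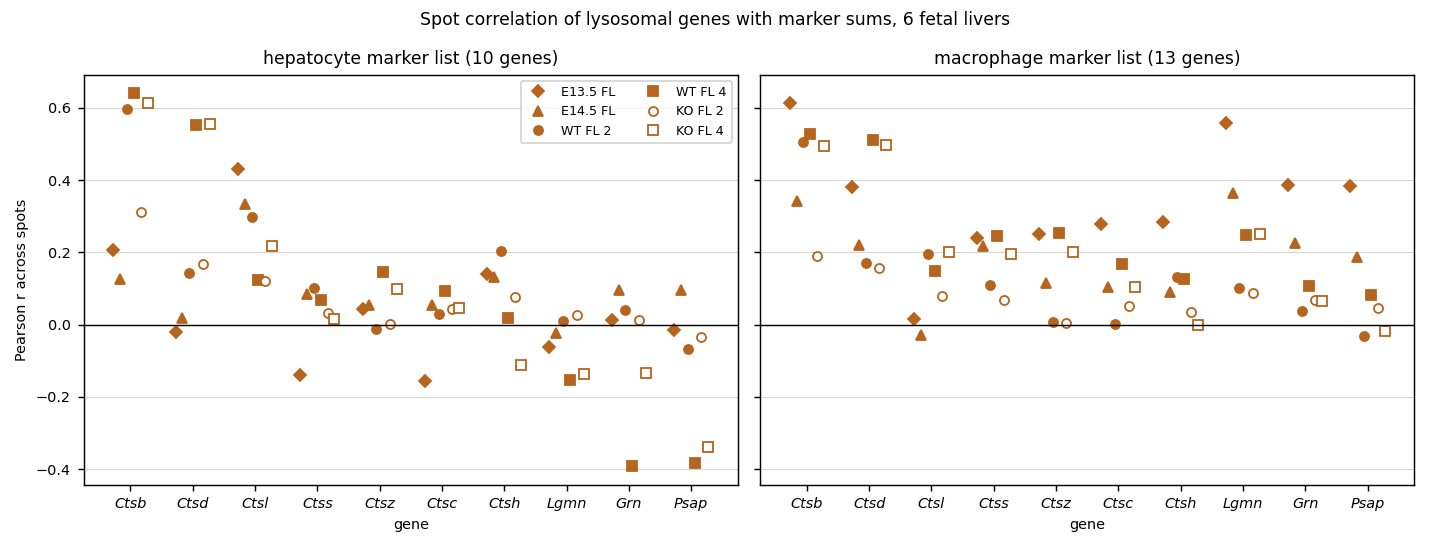
Pearson r across all passing spots between the 10 genes and summed hepatocyte markers (left) or macrophage markers (right) in 6 fetal livers, with open symbols for knockouts. Ctsl is above 0 against hepatocyte markers in all 6, up to 0.429, and Grn and Psap are at -0.391 and -0.383 in wild-type fetal liver 4.

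P8 marrow was the 1 section with much bone, where the 6 bone matrix markers summed to 121293 CPM and the 6 osteoclast markers to 3399 CPM. In its osteoclast-rich spots (the top 25%, 271 spots) against its osteoclast-poor spots (the bottom 25%, 272 spots), Ctsz was at 559 and 254 CPM, 2.20 times, with r of 0.432 over 1085 spots. Ctsh (2.39 times), Ctsc (2.13), Ctss (1.95), Grn (1.82) and Ctsb (1.63) were also higher there, and Ctsl was lower (0.804). Ctsl was instead higher in spots rich in bone matrix genes, with 401 and 233 CPM, and in cartilage-rich spots, with 402 and 245 CPM, and lower in neutrophil-rich (0.469) and erythroid-rich (0.450) spots. Ctss had the reverse order, 2.75 times in erythroid-rich, 2.27 times in neutrophil-rich and 0.327 times in cartilage-rich spots. Spots rich in neutrophil or erythroid markers were also deeper, with a median of 31997 against 16564 and 33992 against 15679 UMIs, whereas cartilage-rich spots were shallower, with 9661 against 31110.5, and osteoclast-rich spots were deeper, with 23982 against 14115. The part of depth was not tested here either. In 89-week marrow, no member had an r with C1qc above 0.120, the value of Ctss.

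Members were also compared with each other. The mean r over 13 sections was above 0 for all 45 pairs, and 12 pairs were positive in every section. Ctsb with Ctsd was the closest pair (mean 0.218, from 0.0328 to 0.622), followed by Ctss with Psap (0.161) and Grn with Psap (0.159). The least alike were Ctsd with Ctsh (0.0165) and Ctsb with Ctsz (0.0209). The genes outside the list closest to the summed members were ranked by mean r over the 13 sections among 7970 genes. Counts were summed without weights, so the members with most counts dominate the sum. Its own mean r was 0.621 with Psap and 0.594 with Ctsb, against 0.395 with Ctsd and 0.184 with Ctsc. Selenop (selenoprotein P) led with 0.300, followed by Tmsb4x (thymosin beta 4; 0.293), Hmox1 (heme oxygenase 1; 0.276), Fcna (ficolin A, a macrophage lectin; 0.275), Apoe (0.274), C1qc (0.263), Fcer1g (0.248), Csf1r (the receptor for macrophage colony-stimulating factor; 0.244), Itm2b (0.243) and B2m (0.236). All 10 were above 0 in 13 of 13 sections, and after thinning their means were 0.0709 to 0.157.

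Other lysosomal genes were followed in 6 lists of 87 genes in all. In the spleen genotype comparison, 25 of 83 tested passed higher in knockouts and 3 lower, beside 13.8% and 6.79% of all genes, with a median log2 difference of 0.33 against -0.082 for all genes. Subunits of the vacuolar proton pump, which acidifies lysosomes, passed higher for 8 of 15, hydrolases of lipids and sugars for 7 of 30, lysosomal membrane proteins for 5 of 15 and sorting receptors and regulators for 5 of 10. Of 8 other cathepsins 3 fell, and of 5 cathepsin inhibitors none passed. The smallest adjusted p by edgeR's quasi-likelihood test belonged to Ctse, cathepsin E, which fell by 2.26 (SE 0.26, adjusted p = 1.84e-05). Hexa, a subunit of beta-hexosaminidase, rose by 1.16 (SE 0.17, adjusted p = 0.000145), the pump subunits Atp6v1c1 by 1.15 (SE 0.19, adjusted p = 0.000426) and Atp6v0b by 1.03 (SE 0.17, adjusted p = 0.000488) and the fucosidase Fuca1 by 0.79 (SE 0.17, adjusted p = 0.00336). Ctsg, the cathepsin G of neutrophil granules, fell by 1.36 (SE 0.28, adjusted p = 0.00261), beside neutrophil markers that went from 677 and 609 CPM to 80.2 and 137 CPM. These 6 kept direction and call under the other scalings, whereas the counts became 11 higher and 6 lower of 83 with upper-quartile factors, with 2 in place of 8 higher for the proton pump, and 0 higher and 2 lower without knockout spleen 2. The proton pump list summed to 1918 and 1978 CPM in the wild types, and in the knockouts it summed to 2158 and 2123 CPM.

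Between tissues, 8 of 83 other lysosomal genes passed higher and 10 lower in spleen in the wild types, beside 28.1% and 18.2% of all genes, and 18 higher and 5 lower in the knockouts, beside 9.68% and 11.6%. Hydrolases gave 10 of the 30 tested as higher in the knockouts. The genes with the smallest adjusted p in both were Ppt1, a palmitoyl-protein thioesterase (2.55 and 2.62), Ctsw, a cathepsin of cytotoxic lymphocytes (2.81 and 2.71), the cathepsin inhibitor Cstb (-2.96 and -3.00) and the mannose 6-phosphate receptor Igf2r (-3.60 and -2.60), on the log2 scale for wild types and knockouts in turn. In the knockouts Ctso (3.16) and Tfeb (2.81) were also among the first 6. In fetal liver between genotypes and in the interaction, none of the 84 tested passed by edgeR's quasi-likelihood test.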

How the data were processed

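The authors deposited raw UMI counts per gene and spot from Visium sections with the genome build mm10, and per the file headers the counts came from Cell Ranger 4 (4 sections), Space Ranger 2.1.1 (1), 3.1.2 (1) and 4.0.1 (8); probe sets are not given in the sources used here. The members, gene lists and tests were chosen with earlier results of these data known.

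Spots on tissue in which 1000 or more genes were seen entered the sums per section. CPM was divided by all UMIs of these spots, with exact 95% Poisson limits. The 4 groups of the cross, 2 sections each, were tested with edgeR 4.0.16 (filterByExpr, trimmed mean of M values, glmQLFit, glmQLFTest; R 4.3.3, limma 3.58.1) in 5 comparisons, each fitted on its own sections with the interaction over all 8. Benjamini-Hochberg adjustment ran over all genes tested, with a threshold of 0.05. p-values measure the spread between sections. Spot correlations used log2 of counts scaled to 6000 per spot plus 1, in sections with at least 50 passing spots (Python 3.11.15, numpy 2.4.6, scipy 1.17.1, pandas 2.3.3). Marker-rich and marker-poor spots were the 25% with the highest and lowest summed share of a marker list. Promoters were matched by symbol. The text names all 10 members, C1q genes and Lyz2, up to 6 called genes of the other lysosomal lists per comparison, by adjusted p, and the 10 genes most like the summed members.

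Same-numbered fetal livers were littermates and deviated together (r = 0.652 over 18986 genes), so their numbers pair the sections. Same-numbered spleens had r = 0.0394. No sections were duplicates. Alternatives were DESeq2 1.42.0, upper-quartile factors, no filter on low counts, all in-tissue spots, hepatocyte spots alone in fetal livers and no pancreas spots in spleens (0.5% of UMIs from 10 markers), 1 fit of 8 sections, blocks, and leaving out each section. Library totals without factors, the blocks with restricted spots, the restricted spots in the interaction, C1qc thinned to the total of Lyz2, and correlations and marker-rich spots by list were added after seeing the data. The test was tried on simulated counts. Image files were not used.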

Additional observations from a re-analysis of the deposited data

Results flagged for a closer look

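The genotype effect on Ctsh differed between tissues by a test of the difference itself once littermates were paired, with the scaling of the main test. The effect was higher in spleen than in fetal liver by 1.40 on the log2 scale with the litter as a block, and by 1.73 with the block and restricted spots. Without the block the same difference was 1.65 and did not pass. In the fetal livers numbered 2, Ctsh was at 116 CPM in the wild type and 60.1 CPM in the knockout. In those numbered 4 it was at 13.9 and 12.8 CPM, so the liver part of the difference lay mostly in 1 litter. Other scalings were not run with the block.

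UMIs of the 10 genes were also present in spots outside the tissue, in the 6 purchased sections that hold such spots. They summed to 25937 in the E13.5 fetal liver, 41803 in the E14.5 fetal liver, 27885 in P8 marrow, 32191 in 89-week marrow, 140 in the EDTA-treated marrow and 44821 in the adult spleen. Per spot this was 3.79%, 7.76%, 12.6%, 23.5%, 1.82% and 12.01% of the level inside the tissue in the same sections. Whether this RNA spreads between neighbouring in-tissue spots was not tested.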

How the results depend on the processing

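Counts of members called held for 0 of 10 in fetal liver between genotypes under all alternatives run. In spleen between genotypes the 1 call became 0 with 1 fit of 8 sections and 2 with upper-quartile factors, and 0 to 3 when a section was left out. In the wild-type tissue comparison the 1 call became 2 with DESeq2, 2 with restricted spots, 3 with upper-quartile factors and 5 with library totals, and 0 to 9 when a section was left out. In the knockouts it became 3, 2, 4 and 7 under the same settings and 1 to 9 when a section was left out. The interaction went from 0 to 1 with the litter block, and to 1 with block and restricted spots. The block changed no other call. Of 400 single-gene values under these settings 334 kept direction and call, and of 160 with a section left out 98 did. Causes were not tested. Low counts limit what can be said of Lyz2, with 35 counts even in the section with the most UMIs, the purchased E14.5 fetal liver. Depth limits what can be said of the EDTA-treated section, which had 15 passing spots.

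These log2 differences changed sign, with upper-quartile factors unless stated. Fetal liver: Ctsz 0.052 (and 0.045 with library totals), Ctsb 0.044 with library totals, and Ctsd -0.056 with block and restricted spots. Spleen: Ctsb -0.081, Ctss -0.093, Ctsz -0.013, Ctsc -0.21, Lgmn -0.032 and Psap -0.091, and with library totals Ctsb -0.051, Ctss -0.060, Ctsc -0.18 and Psap -0.064. Wild-type tissues: Ctsb 0.10, Ctsd 0.26, Ctsh 0.50 and Lgmn 0.67, and with library totals 0.60, 0.67, 1.07 and 1.07. Knockout tissues: Ctsb 0.046 and Ctsd 0.042, and with library totals 0.50 and 0.46. Interaction: Ctsb -0.057, Ctsd -0.22, Ctsl -0.023, Ctsz -0.066 and Grn -0.27, with library totals Ctsb -0.095, Ctsd -0.22, Ctsl -0.044, Ctss -0.0010, Ctsz -0.029 and Grn -0.25, and with block and restricted spots Ctsc 0.099.

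With a section left out, which leaves a lone section assumed to vary like the other group, all 10 members changed sign in fetal liver: Ctsb -1.76 to 1.63, Ctsd -1.06 to 1.20, Ctsl -1.65 to 0.56, Ctss -1.64 to 1.35, Ctsz -1.01 to 0.53, Ctsc -0.996 to 1.32, Ctsh -3.45 to 1.98, Lgmn -1.36 to 0.79, Grn -1.76 to 0.60 and Psap -1.59 to 0.73. In spleen Ctsc (-0.051 to 0.20) and Psap (-0.047 to 0.46) did, in the wild-type tissues Ctsb (-1.38 to 1.11), Ctsd (-1.04 to 0.57), Ctsh (-1.14 to 2.72), Lgmn (-0.62 to 0.94) and Grn (-0.20 to 1.33), and in the knockout tissues Ctsb (-1.10 to 1.497), Ctsd (-0.97 to 1.10), Lgmn (-0.24 to 1.74) and Grn (-0.27 to 2.02).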
